A study of Mus musculus with 8 samples.

Results

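The 10 genes described here write, maintain or remove repressive chromatin marks, and their transcripts were followed through prostate tumor development in the mouse. They are the Polycomb repressive complex 2 (PRC2) genes *Ezh1*, *Ezh2*, *Suz12* and *Eed*, the DNA methylation genes *Dnmt1*, *Dnmt3a*, *Dnmt3b* and *Uhrf1*, and the DNA demethylation genes *Tet1* and *Tet2*. They were taken by symbol, and all 10 were found among the 27036 genes of the count table. All 10 were also among the 14034 genes tested, which are those with more than 1 CPM in at least 2 libraries. CPM are counts scaled to a fixed library size, and the values given here use library sizes adjusted by TMM, a method that corrects for libraries in which a few genes take many of the reads. Bulk RNA-seq had been performed on 3 WT prostates, 3 tissues with prostatic intraepithelial neoplasia (PIN), the precursor lesion, and 2 prostatic adenocarcinoma (PCa) tissues. PIN and PCa came from R26mTmG/hAR:Osr1Cre/+ mice, in which Cre driven by the *Osr1* promoter switches on a floxed human androgen receptor transgene (hARtg). The WT controls were R26mTmG/+:Osr1Cre/+ mice, so that the membrane reporter mTmG and the Cre allele were present in every group and only the transgene was not. All mice were of a mixed genetic background. The controls are described as age-matched, and the ages of the animals behind the single libraries are not given in the sources used here. The paper reports that PIN starts at a younger age than PCa in these mice, so lesion stage and age cannot be told apart. The transgene is confined to the *Osr1* lineage, and PIN and PCa tissues had been checked under the microscope for a high share of atypical or tumor cells.

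PRC2 places methyl groups on a lysine of the histone H3 tail, and genes that carry this mark are held silent. EZH2 or its paralog EZH1 is the catalytic subunit, EED reads the mark and stimulates the enzyme, and SUZ12 holds the complex together. EZH2 is typical of dividing cells and EZH1 of resting ones, and EZH2 is well known in human prostate cancer for its rise in advanced disease. DNMT3A and DNMT3B methylate unmodified DNA, while DNMT1 copies methylation onto the new strand after replication and is brought there by UHRF1. The TET enzymes oxidize methylated cytosine and start its removal.

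The libraries held from 21751803 to 29730420 counts on genes. In WT and PIN the most abundant gene took from 13.1% to 22.1% of the counts, against 1.06% and 1.43% in PCa, so adjusted library sizes matter here. The summed level of 7 luminal epithelial markers was 10915 to 32808 CPM in WT, 11660 to 18858 CPM in PIN and 2936 to 3327 CPM in PCa. Most of the sum in WT and PIN came from *Pbsn*, a secreted protein of the prostate and the only one of the 7 that was called (lower in PCa), with 6552 to 23968 CPM in WT, 6690 to 13097 CPM in PIN, and 8.53 and 60.8 CPM in PCa. The keratin genes *Krt8* and *Krt18*, picked after their values had been seen, did not share this pattern, with log2 fold changes of 1.06 and 0.66 in PCa over PIN and -0.23 and -0.27 over WT, none of them called. Smooth muscle markers were low in PCa, where 5 genes were called lower in both comparisons. They summed to 1911 to 4620 CPM in WT, 3027 to 5421 CPM in PIN, and only 41.2 and 17.9 CPM in PCa 1 and 2. In bulk tissue, fewer cells of a type and less RNA per cell cannot be told apart. The library numbers in the labels form 3 series (WT 1 alone, WT 2 with WT 3, and all PIN with PCa), so a series and the condition cannot be told apart in comparisons with WT. WT 1 also carried 15880 CPM of seminal vesicle genes, against at most 0.769 CPM in the other WT libraries, 43.9 to 88.7 CPM in PIN, and 3840 and 883 CPM in PCa 1 and 2. The Spearman correlation over tested genes was 0.839 between PCa 1 and PCa 2, and at least 0.923 within WT and within PIN.

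*Ezh2*, *Uhrf1* and *Dnmt1* rose in PCa, and the other 7 genes were not called in any comparison. A gene was called where its log2 fold change passed 1 in either direction with an adjusted p-value below 0.05, in 1 edgeR quasi-likelihood model of all 8 libraries. In PCa against WT, 3 of the 10 genes were called, all higher, where 8.54% of all tested genes were called and 4.35% were called higher. In PCa against PIN the same 3 were called, against 5.72% of all genes, or 2.55% for the higher direction. In PIN against WT, 0 of the 10 were called, as were 0 of all genes (0%), with 492 genes (3.51%) and 0 of the 10 at an unadjusted p-value under 0.05. DESeq2 called 39 genes in PIN against WT, and 0 of the 10 were among them. The median log2 fold change of the 10 genes was 0.18 in PIN over WT, 0.72 in PCa over WT and 0.56 in PCa over PIN, against -0.02, 0.01 and 0.07 over all tested genes.

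**Figure D1:**
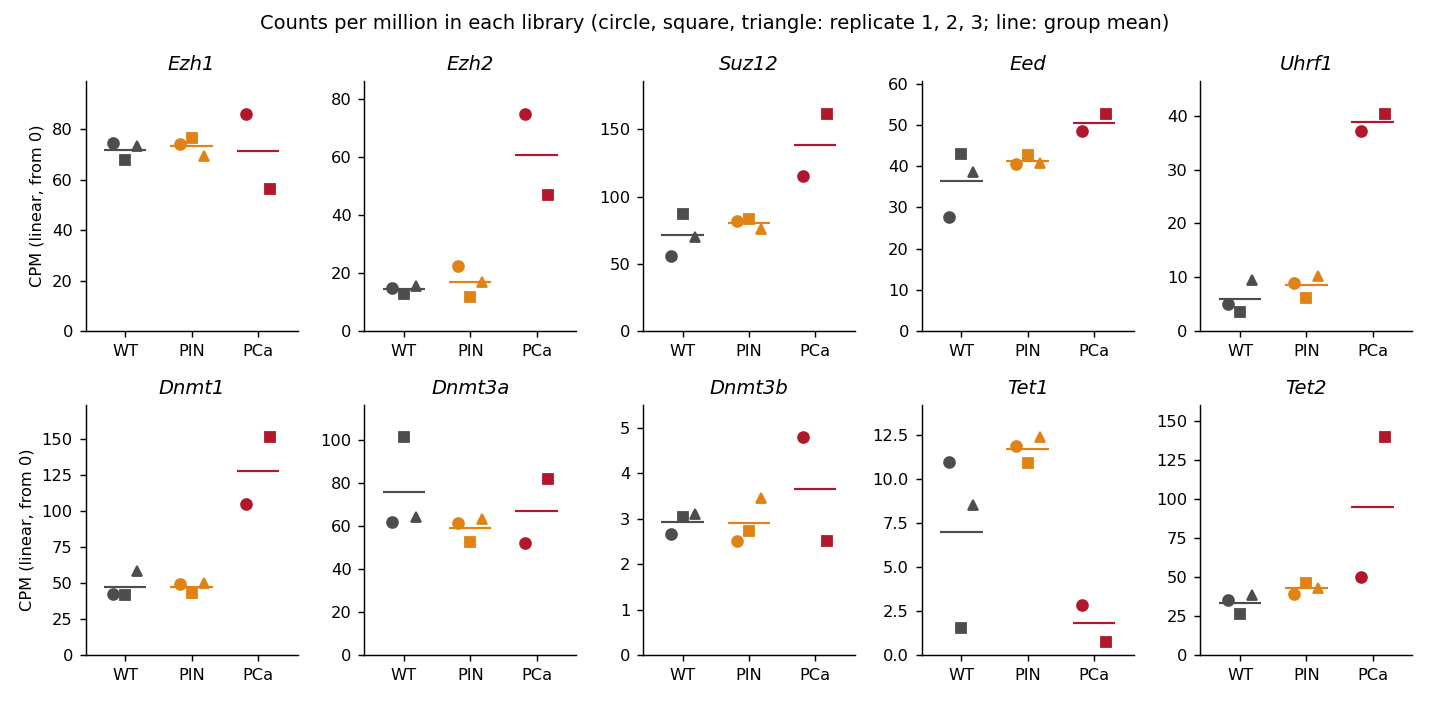
CPM of each gene in each library (y axis, linear from 0), by group (x axis); symbols mark replicates 1 to 3 and lines mark group means. *Ezh2*, *Uhrf1* and *Dnmt1* stand higher in both PCa libraries than in every WT and PIN library, *Ezh1* stays between 56.1 and 86.0 CPM, and *Tet1* is low in PCa and in WT 2.

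*Ezh2* (chromosome 6 of mm9, 47480273 to 47545340) had 14.7, 12.96 and 15.6 CPM in WT 1, 2 and 3. It had 22.4, 11.7 and 17.0 CPM in PIN 1, 2 and 3, and 74.9 and 46.8 CPM in PCa 1 and 2. Both tumors stood above every WT and PIN library, while the PIN values spread to both sides of the WT range. The rise in PCa over WT was 4.21-fold, or 2.07 on the log2 scale (standard error 0.33, edgeR BH-adjusted p = 0.0132). Over PIN it was 3.57-fold, a log2 fold change of 1.84 (standard error 0.32, edgeR BH-adjusted p = 0.0266). PIN and WT differed by 0.24 on the log2 scale (standard error 0.29), less than the spread between libraries. The summed level of 9 leukocyte markers was 42.5 to 95.9 CPM in WT, 44.1 to 115 CPM in PIN, and 337 and 28.5 CPM in PCa 1 and 2, so it was high in PCa 1 and low in PCa 2. Basal epithelial markers differed in the same way, with 604 and 27.4 CPM in PCa 1 and 2 against 167 to 387 CPM in WT and PIN, and fibroblast markers had 744 and 282 CPM in PCa 1 and 2. The part of cell composition in these differences was not tested.

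The paralog *Ezh1* (chromosome 11, 101052429 to 101087777) behaved differently. It had 74.3, 67.6 and 73.1 CPM in WT, 74.1, 76.3 and 69.1 CPM in PIN, and 86.0 and 56.1 CPM in PCa. The 2 tumors lay on opposite sides of the WT and PIN values, and the log2 fold change in PCa over WT was -0.011 (standard error 0.22, edgeR BH-adjusted p = 0.981).

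Since both were counted in the same library, the 2 paralogs can be compared without scaling between libraries. TPM, which divide counts by the summed exon length of a gene and scale each library to the same total, were used for levels between genes. *Ezh2* made up 19.2%, 18.7% and 20.4% of the summed *Ezh1* and *Ezh2* TPM in WT 1, 2 and 3, and 26.6%, 15.6% and 22.8% in PIN 1, 2 and 3. In PCa 1 and 2 it made up 51.1% and 50.01%. By TPM, *Ezh1* was thus the more abundant transcript in each WT and PIN library and the paralogs were about level in both tumors. In raw counts *Ezh1* stayed above *Ezh2* in the tumors, with 2674 and 1637 counts against 2329 and 1364. The near equality therefore rests on the summed exon lengths, 7440 bases for *Ezh1* and 6197 for *Ezh2*. The mean log2 ratio of *Ezh2* to *Ezh1* was -2.05 ± 0.08 (SD, n = 3) in WT, -1.89 ± 0.50 (SD, n = 3) in PIN and 0.03 ± 0.05 (SD, n = 2) in PCa. The ratio was 4.24-fold higher in PCa than in WT (two-sided exact permutation test, p = 0.1, the smallest that 10 arrangements allow). It was 3.78-fold higher in PCa than in PIN (two-sided exact permutation test, p = 0.1, again the smallest possible). PIN and WT differed by 0.16 on the log2 scale (two-sided exact permutation test, p = 0.7), and without PIN 1 the difference was -0.049. The 2 tumors differed in the level of each paralog but hardly in the ratio, which was 1.05 in PCa 1 and 1.00 in PCa 2.

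**Figure D2:**
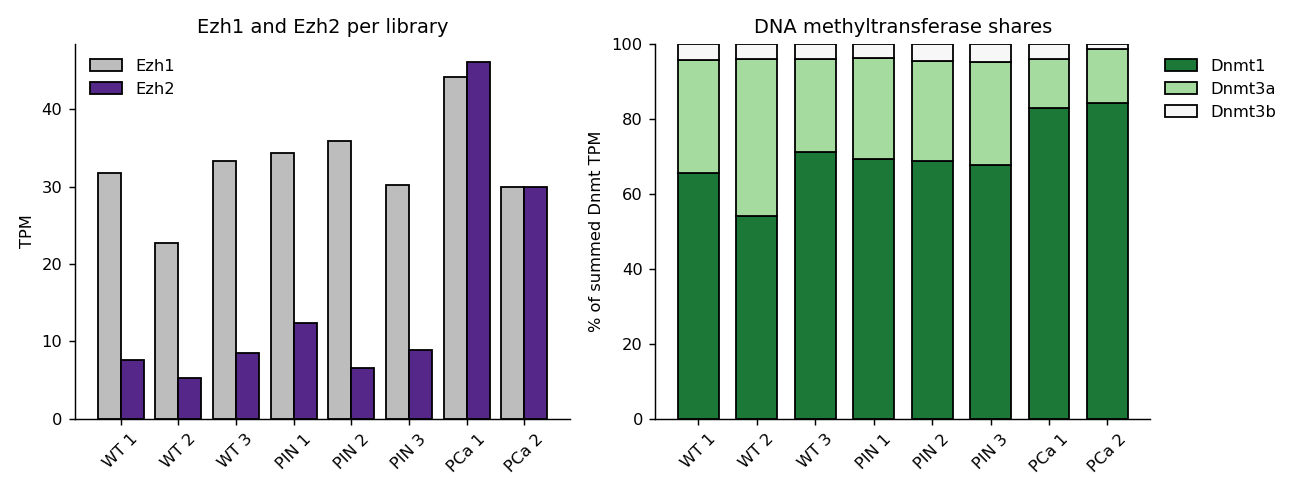
Left, TPM of *Ezh1* (grey) and *Ezh2* (purple) in each library; right, shares of *Dnmt1*, *Dnmt3a* and *Dnmt3b* in their summed TPM (%). *Ezh2* reaches the level of *Ezh1* only in PCa 1 and PCa 2, and the *Dnmt1* share is 83.0% and 84.2% there against at most 71.3% in WT and PIN.

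The other core subunits moved less. *Suz12* (chromosome 11, 79806608 to 79847625) had 56.2, 87.1 and 70.0 CPM in WT, 81.6, 83.5 and 75.8 CPM in PIN, and 115 and 162 CPM in PCa. Both tumors were above all other libraries. Its log2 fold change in PCa over WT was 0.96 (standard error 0.24, edgeR BH-adjusted p = 0.04996), just below the fold limit, and 0.78 over PIN (standard error 0.24, edgeR BH-adjusted p = 0.103). *Suz12* was called in PCa against WT without WT 2 and without PCa 1, and was not called in the other fits of this comparison. *Eed* (chromosome 7, 97103166 to 97129493) had 27.7, 43.0 and 38.6 CPM in WT, 40.6, 42.6 and 40.8 CPM in PIN, and 48.4 and 52.7 CPM in PCa. The tumors were again the highest libraries, but by a small step, with a log2 fold change of 0.47 over WT (standard error 0.22, edgeR BH-adjusted p = 0.220). *Ezh2* and *Suz12* did not have the same order in the tumors, since *Ezh2* was higher in PCa 1 and *Suz12* in PCa 2.

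*Uhrf1* (chromosome 17, 56442744 to 56462909), the partner that directs DNMT1 to replicated DNA, had the largest fold change of the 10 genes in PCa over WT. It had 4.99, 3.53 and 9.59 CPM in WT, 8.999, 6.20 and 10.3 CPM in PIN, and 37.2 and 40.4 CPM in PCa. The 2 tumors were close to each other and far above the other 6 libraries, among which WT and PIN overlapped. The rise was 6.41-fold over WT, or 2.68 on the log2 scale (standard error 0.44, edgeR BH-adjusted p = 0.0149), and 4.57-fold over PIN, a log2 fold change of 2.19 (standard error 0.43, edgeR BH-adjusted p = 0.0334). Between PIN and WT the log2 fold change was 0.49 (standard error 0.39), within the spread of the libraries.

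*Dnmt1* (chromosome 9, 20711650 to 20757317), the maintenance methyltransferase, had 42.2, 41.3 and 58.4 CPM in WT, 49.5, 42.8 and 49.7 CPM in PIN, and 104.5 and 151 CPM in PCa. WT and PIN had almost the same mean, 47.3 CPM in both, and a log2 fold change of 0.00043 (standard error 0.22). PCa was 2.70-fold above WT, or 1.43 on the log2 scale (standard error 0.24, edgeR BH-adjusted p = 0.0163). The log2 fold change over PIN was 1.43 as well (standard error 0.24, edgeR BH-adjusted p = 0.0232).

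The de novo methyltransferases did not follow. *Dnmt3a* (chromosome 12, 3806007 to 3914443) had 61.5, 101 and 64.3 CPM in WT, 61.2, 52.4 and 63.4 CPM in PIN, and 52.2 and 81.8 CPM in PCa. PCa 1 was the lowest of all 8 libraries and PCa 2 the second highest, with a log2 fold change over WT of -0.18 (standard error 0.30, edgeR BH-adjusted p = 0.744). *Dnmt3b* (chromosome 2, 153475186 to 153513466) was scarce, with 54 to 85 counts in WT, 70 to 92 in PIN, and 149 and 73 in PCa 1 and 2. Its log2 fold change over WT was 0.31 (standard error 0.43, edgeR BH-adjusted p = 0.687), and -0.22 without PCa 1. *Dnmt1* made up more of the 3 methyltransferase transcripts in the tumors, 83.0% and 84.2% of their summed TPM, than in WT (54.1% to 71.3%) or PIN (67.8% to 69.3%). In raw counts *Dnmt3a* was above *Dnmt1* in each WT and PIN library, so the size of these shares depends on the exon lengths. The *Uhrf1* to *Dnmt1* TPM ratio was 0.106 to 0.203 in WT, 0.179 to 0.256 in PIN, and 0.440 and 0.330 in PCa 1 and 2.

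In the comparisons with PCa the fold changes of *Tet1* and *Tet2* had opposite signs, and in PIN over WT both were above 0 (0.74 and 0.36 on the log2 scale). Neither gene was called. *Tet1* (chromosome 10, 62267318 to 62361866) had 10.975, 1.54 and 8.49 CPM in WT, 11.9, 10.9 and 12.4 CPM in PIN, and 2.83 and 0.754 CPM in PCa. PCa lay below all 3 PIN libraries, while WT 2 lay between the tumors. The log2 fold change of *Tet1* was -2.70 in PCa over PIN (standard error 0.90, edgeR BH-adjusted p = 0.124) and -1.96 in PCa over WT (standard error 0.86, edgeR BH-adjusted p = 0.191). It was called lower in PCa against PIN without WT 2 and by DESeq2, and was not called in PCa against WT under any setting tried. WT 2 also had the lowest smooth muscle and endothelial marker levels of the WT and PIN libraries, 1911 CPM and 15.0 CPM, and its fibroblast markers were the lowest of these libraries as well (521 CPM). In PCa, where *Tet1* was low too, smooth muscle markers were low, and fibroblast markers summed to 744 CPM in PCa 1 and 282 CPM in PCa 2. The gene most like *Tet1* over the 8 libraries was the laminin gene *Lamc3* (Pearson 0.997), looked up after the *Tet1* values had been seen. Endothelial markers did not share the low level in PCa, where they summed to 114 and 149.9 CPM against 15.0 to 95.6 CPM in WT. The part of cell composition in the *Tet1* values was not tested.

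*Tet2* (chromosome 3, 133126643 to 133207354) had 35.3, 26.1 and 38.1 CPM in WT, 39.3, 45.9 and 42.8 CPM in PIN, and 50.1 and 139 CPM in PCa. The groups did not overlap, and PIN stood between WT and PCa, but most of the distance came from PCa 2. Its log2 fold change over WT was 1.51 (standard error 0.39, edgeR BH-adjusted p = 0.0549), 0.61 without PCa 2 and 2.08 without PCa 1. DESeq2 called this difference, as did the fit without PCa 1. *Tet2* was the only one of the 10 genes whose PIN values all lay above the WT values, an arrangement shown by 6.48% of all tested genes. The *Tet1* to *Tet2* TPM ratio was 0.194, 0.0369 and 0.140 in WT, 0.149 to 0.189 in PIN, and 0.0354 and 0.00339 in PCa 1 and 2.

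**Figure D3:**
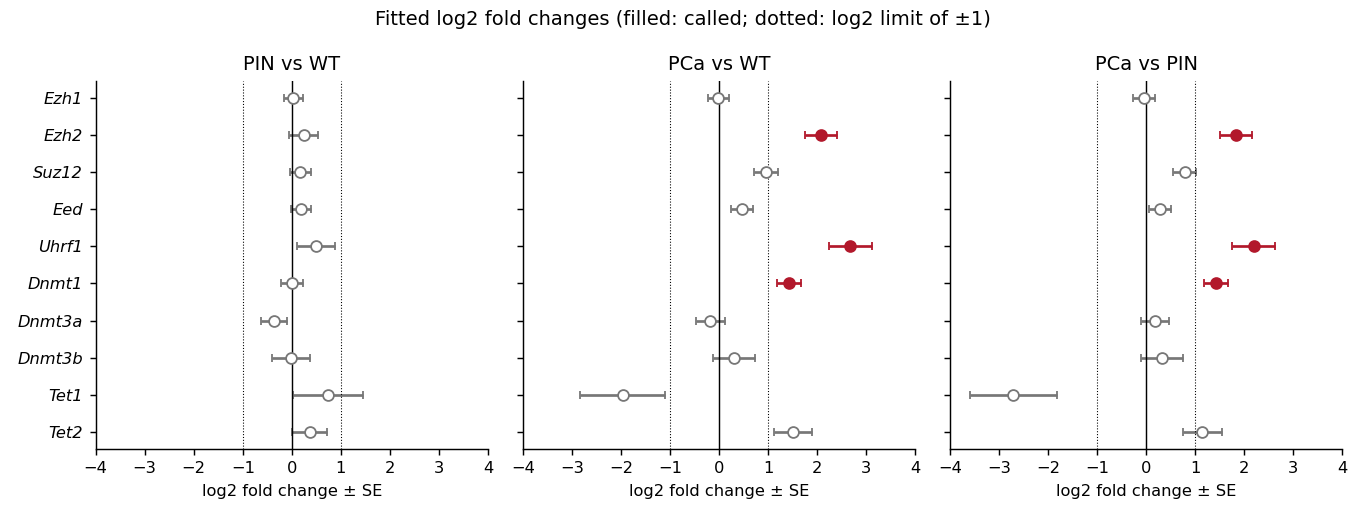
Log2 fold change of each gene (x axis, with standard error) in PIN over WT, PCa over WT and PCa over PIN; filled points were called and dotted lines mark the log2 limit of 1 in either direction. The filled points are *Ezh2*, *Uhrf1* and *Dnmt1* in the comparisons with PCa, and PIN over WT has none.

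In PCa against WT, 6 of the 10 genes had both tumors above every WT library and 0 had both below, where 17.7% and 19.6% of all tested genes did so. In PCa against PIN the numbers were 6 above and 1 below, against 21.1% and 23.2% of all genes. The calls changed with the libraries in the model. With only WT and PCa in the model, 0 of the 10 genes were called in PCa against WT, and without any 1 of the PIN libraries, 0 were called in PCa against PIN. The log2 fold changes in the first of these fits were 2.06 for *Ezh2*, 2.67 for *Uhrf1* and 1.42 for *Dnmt1*. Without single PIN libraries, those over PIN were 1.63 to 2.101 for *Ezh2*, 2.01 to 2.35 for *Uhrf1* and 1.37 to 1.48 for *Dnmt1*. Leaving out PCa 1 gave 5 calls in each of these comparisons, the 3 genes with *Suz12* and *Tet2*, and leaving out PCa 2 gave 3 and 2.

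Levels between genes were ordered by TPM. In WT the order of mean TPM was *Eed* (49.0), *Suz12* (42.7), *Ezh1* (29.2), *Dnmt1* (27.6), *Dnmt3a* (13.3), *Tet2* (11.1), *Ezh2* (7.11), *Uhrf1* (4.47), *Dnmt3b* (1.74) and *Tet1* (1.53). The ranges of neighbours in that order overlapped over the 3 WT libraries, except *Suz12* with *Ezh1*, *Dnmt1* with *Dnmt3a*, and *Uhrf1* with *Dnmt3b*. Compared within each WT library, *Eed* was also always above *Suz12*, *Tet2* above *Ezh2*, and *Ezh2* above *Uhrf1*. In PCa *Suz12* was first with 109 and *Dnmt1* second with 94.8, while *Uhrf1* reached 35.5, beside *Ezh1* at 37.0 and *Ezh2* at 38.0. The summed exon lengths of *Dnmt3a* (16642 bases) and *Tet1* (14710 bases) were the longest of the 10, and a transcript shorter than the sum of all exons would have a higher TPM than given here.

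*Ezh2*, *Uhrf1* and *Dnmt1* are known as genes of dividing cells, so 20 proliferation markers were read from the same fit. In PCa over WT, 17 of the 20 were called higher and 0 lower, where 4.35% and 4.18% of all tested genes were. In PCa over PIN 15 were called higher, against 2.55% of all tested genes. Over all settings tried, 7 to 18 were called higher over WT and 1 to 19 over PIN. The median log2 fold changes of the list were 2.48 and 2.08, and stayed between 1.957 and 2.713 in every setting. *Mki67*, the gene of the Ki67 antigen, had 16.1 to 20.3 CPM in WT, 19.5 to 49.6 CPM in PIN, and 223 and 305 CPM in PCa. Its log2 fold change of 3.85 in PCa over WT (standard error 0.40, edgeR BH-adjusted p = 0.00602) was larger than that of any of the 10 genes. *Aurka*, *Ccnb1*, *Bub1* and *Birc5*, all genes of mitosis, rose by log2 fold changes of 5.73, 3.92, 3.67 and 3.61 in the same comparison. The mean log2(CPM + 1) of the list was 2.34 to 2.74 in WT, 2.66 to 3.21 in PIN, and 4.97 and 4.96 in PCa. The difference of *Uhrf1* from the list mean on the same scale was -0.16 to 0.66 in the WT and PIN libraries, and 0.28 and 0.41 in PCa. *Ezh2* stood 0.96 to 1.49 above the list mean in WT and PIN, and 1.28 and 0.62 above it in PCa 1 and 2. *Dnmt1* stood 2.45 to 3.15 above it in WT and PIN, and 1.75 and 2.29 above it in PCa. By this measure *Ezh2* in PCa 1 and *Uhrf1* in both tumors lay within the range that WT and PIN held against the list, *Ezh2* in PCa 2 lay below it, and *Dnmt1* lay below it in both tumors. Over the 8 libraries, Pearson correlations with the list mean were 0.977 for *Uhrf1*, 0.963 for *Ezh2*, 0.949 for *Dnmt1* and 0.821 for *Suz12*, and -0.134 for both *Ezh1* and *Dnmt3a*. These are descriptions over libraries that fall into tumor and non-tumor clusters. The part of proliferation in the rise of the 3 genes was not tested.

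**Figure D4:**
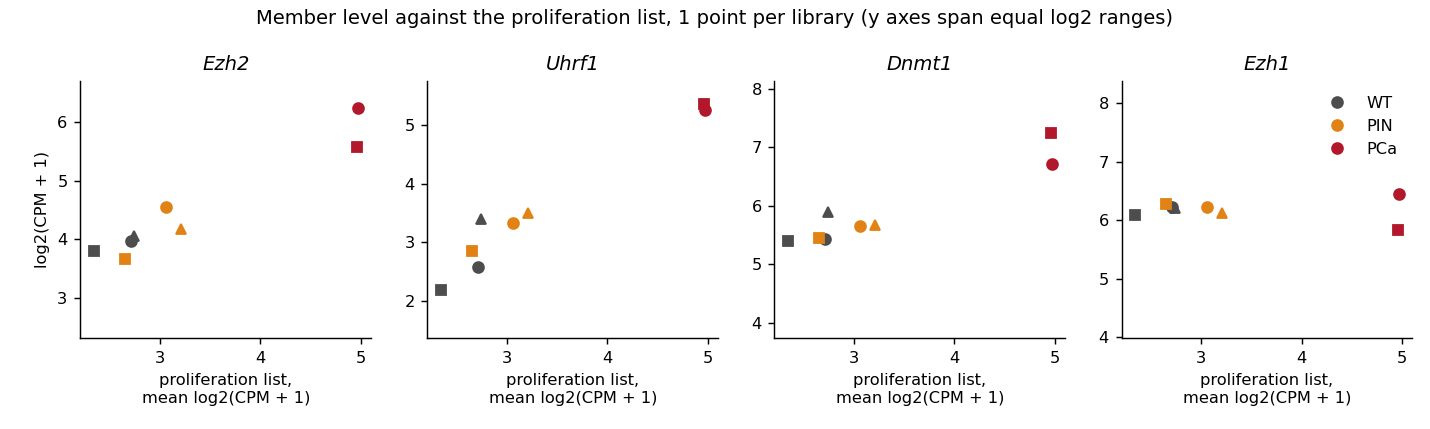
Log2(CPM + 1) of *Ezh2*, *Uhrf1*, *Dnmt1* and *Ezh1* (y axes of equal span) against the mean log2(CPM + 1) of 20 proliferation markers (x axis), 1 point per library and 1 symbol per replicate number. Both PCa libraries lie near 5 on the x axis, with high *Ezh2*, *Uhrf1* and *Dnmt1*, while *Ezh1* is spread around the level of the other libraries.

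Promoters of the 10 genes were then read for the recognition sequence of E2F factors, the transcription factors that drive genes of DNA replication, because several of the genes moved together with that program. The search was chosen after the expression values had been seen. It covered 4 spellings of the site (TTTCCCGC, TTTGGCGC, TTTCGCGC and TTTGCCGC) on both strands, with overlapping matches counted, in RefSeq promoter windows of 300 bases (250 before and 50 after a transcription start, GRCm38.p6). All 10 genes had at least 1 window, and 15 windows were found in all. A match was present for 4 of the 10 genes, *Ezh2*, *Suz12*, *Dnmt1* and *Uhrf1*, where 2.6% of all genes in the table had one. Of single windows 2.26% had a match, and of windows with a CpG ratio of at least 0.6 (observed over expected CpG) 5.02%. The windows of these 4 genes that held a match had CpG ratios of 0.910 to 1.09, above the median of 0.384 over all windows. High ratios were not limited to them. Of the 15 windows, 11 had a ratio of at least 0.6, among them those of *Ezh1* (0.882) and *Tet2* (1.17), which held no match. Such a match is a short run of letters and not a measured binding site. The part of E2F factors in the rise of these genes was not tested.

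The windows with a match are shown with the matching letters in capitals, 5′ to 3′ along the gene's own strand, followed by the window of *Ezh1*, the paralog without a match, for comparison. They lie at chr6:47594981-47595280 on the minus strand for *Ezh2*, chr17:56304063-56304362 on the plus strand for the second start of *Uhrf1*, chr9:20952574-20952873 on the minus strand for the third start of *Dnmt1*, chr11:79992856-79993155 on the plus strand for *Suz12*, and chr11:101226414-101226713 on the minus strand for *Ezh1*.
Ezh2: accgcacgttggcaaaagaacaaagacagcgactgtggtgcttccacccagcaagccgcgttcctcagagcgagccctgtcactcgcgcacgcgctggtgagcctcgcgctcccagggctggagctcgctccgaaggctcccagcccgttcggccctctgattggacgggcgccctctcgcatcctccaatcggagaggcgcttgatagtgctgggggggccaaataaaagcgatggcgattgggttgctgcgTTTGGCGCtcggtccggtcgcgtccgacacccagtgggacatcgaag
Uhrf1: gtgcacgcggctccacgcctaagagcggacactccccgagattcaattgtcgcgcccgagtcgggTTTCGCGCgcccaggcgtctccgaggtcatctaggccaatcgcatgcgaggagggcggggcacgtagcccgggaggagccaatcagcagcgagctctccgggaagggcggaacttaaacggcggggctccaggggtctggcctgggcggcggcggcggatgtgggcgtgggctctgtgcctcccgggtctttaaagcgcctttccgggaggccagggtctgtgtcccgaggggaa
Dnmt1: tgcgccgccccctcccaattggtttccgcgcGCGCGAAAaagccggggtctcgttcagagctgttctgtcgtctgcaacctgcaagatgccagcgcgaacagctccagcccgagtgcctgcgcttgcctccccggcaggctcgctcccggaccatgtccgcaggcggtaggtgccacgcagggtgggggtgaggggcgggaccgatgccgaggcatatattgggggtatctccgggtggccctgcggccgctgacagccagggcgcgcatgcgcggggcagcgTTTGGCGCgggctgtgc
Suz12: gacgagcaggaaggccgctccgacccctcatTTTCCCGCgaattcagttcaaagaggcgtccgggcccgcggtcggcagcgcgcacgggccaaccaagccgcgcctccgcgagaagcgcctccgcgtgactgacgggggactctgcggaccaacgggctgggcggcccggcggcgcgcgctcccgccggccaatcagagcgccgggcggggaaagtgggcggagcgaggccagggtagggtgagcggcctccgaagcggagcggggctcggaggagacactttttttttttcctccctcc
Ezh1: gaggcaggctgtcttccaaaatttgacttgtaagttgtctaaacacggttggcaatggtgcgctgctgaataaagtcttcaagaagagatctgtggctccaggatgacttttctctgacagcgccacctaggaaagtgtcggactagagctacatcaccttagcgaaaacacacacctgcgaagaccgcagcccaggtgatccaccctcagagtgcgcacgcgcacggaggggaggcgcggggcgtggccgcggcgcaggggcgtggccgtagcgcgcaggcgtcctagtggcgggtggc

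The match in *Ezh2* was TTTGGCGC at bases 4 to 11 after the start. *Dnmt1* held the same letters at bases 34 to 41 after the start and TTTCGCGC on the opposite strand at bases -219 to -212. *Uhrf1* held TTTCGCGC at -185 to -178 and *Suz12* held TTTCCCGC at -219 to -212. The other starts of *Uhrf1* and *Dnmt1* had no match, nor had any window of *Eed*, *Dnmt3a*, *Dnmt3b*, *Tet1* or *Tet2*. The E2F genes themselves were also read. Of 11 genes for RB pocket proteins and E2F factors, 3 were called higher and 0 lower in PCa against WT, and the same numbers in PCa against PIN, beside 4.35% and 2.55% of all genes called higher. *E2f8*, *E2f7* and *E2f2* rose over WT with log2 fold changes of 3.36, 2.66 and 1.39, and *E2f7* and *E2f8* are known as repressors of the E2F program. *E2f1*, named here after its values had been seen and also one of the 20 proliferation markers, had 3.16, 0.136 and 2.16 CPM in WT and 6.15 and 7.03 CPM in PCa, and was not called (edgeR BH-adjusted p = 0.242).

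Among 11 PRC2 core and accessory genes, 1 was called higher (*Ezh2*) and 1 lower in PCa against WT, where 4.35% and 4.18% of all genes were. Their median log2 fold change was 0.56. The one that fell was *Phf1*, a Polycomb-like accessory subunit that recruits the complex to chromatin. It had 60.0, 33.6 and 43.2 CPM in WT, 32.9, 51.1 and 37.5 CPM in PIN, and 17.9 and 9.77 CPM in PCa, a log2 fold change over WT of -1.72 (standard error 0.39, edgeR BH-adjusted p = 0.0367). Over PIN it was -1.55 and was not called (edgeR BH-adjusted p = 0.0584). In PCa against WT the settings tried gave 0 to 1 gene of this list called lower and 0 to 3 called higher. Its relative *Mtf2* had 15.5 to 25.8 CPM in WT and 57.1 and 32.5 CPM in PCa, a log2 fold change of 1.01 that did not pass (edgeR BH-adjusted p = 0.0955). The third relative, *Phf19*, had 10.47 to 40.8 CPM in WT and 35.9 and 40.8 CPM in PCa. *Mtf2* and *Phf19* were chosen for mention after their values had been seen.

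PRC1, the other Polycomb complex, which ubiquitinates histone H2A, was read from 21 genes. Of these, 0 were called in PCa against WT, where 8.54% of all genes were, and 1 was called higher in PCa against PIN, where 5.72% of all genes were called and 2.55% called higher. Over the settings tried, 0 to 2 were called higher in each of these comparisons, and 0 to 1 lower in the first. That gene was *Cbx2*, a subunit that binds the PRC2 mark, with 6.003 to 15.2 CPM in WT, 5.79 to 8.68 CPM in PIN, and 31.2 and 22.4 CPM in PCa. Its log2 fold change was 1.99 over PIN (standard error 0.44, edgeR BH-adjusted p = 0.0434) and 1.48 over WT (edgeR BH-adjusted p = 0.0748). *Cbx7*, a paralog of *Cbx2*, had a log2 fold change of 1.24 over WT (edgeR BH-adjusted p = 0.202). Of the enzymes that oppose Polycomb, the lysine demethylases and the subunits of the H2A deubiquitinase, 5 of 6 genes were tested and 0 were called in any comparison. In PCa over WT the widest differences were those of the demethylase gene *Kdm6b*, 0.54 on the log2 scale, and of the deubiquitinase gene *Bap1*, -0.32.

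The DNA methylation writers and their cofactors showed the highest share of calls among the chromatin lists, which hold *Uhrf1* and *Dnmt1* themselves. Of 7 tested genes 4 were called higher in PCa than in WT and 3 were called higher than in PIN, beside 4.35% and 2.55% of all genes, with 0 to 4 in either comparison over all settings tried, and the median log2 fold changes were 1.43 and 1.58. The others called were *Hells*, a remodeling ATPase needed for DNA methylation, and *Cdca7*, which recruits it. *Hells* had 1.93, 2.27 and 7.69 CPM in WT, 6.52, 5.03 and 7.99 CPM in PIN, and 24.8 and 44.3 CPM in PCa, and the log2 difference between PCa and WT was 3.12 (standard error 0.63, edgeR BH-adjusted p = 0.0271). Its log2 difference from PIN, 2.41, was not called (edgeR BH-adjusted p = 0.0627). *Cdca7* had 5.14, 3.35 and 5.05 CPM in WT, 5.47, 7.40 and 6.10 CPM in PIN, and 21.7 and 26.9 CPM in PCa, a log2 fold change over WT of 2.43 (standard error 0.31, edgeR BH-adjusted p = 0.00816). *Uhrf2*, the paralog of *Uhrf1* and chosen for mention after its values had been seen, was high only in PCa 1, at 244 CPM against 49.3 CPM in PCa 2 and 44.1 to 76.9 CPM in WT, and it was not called.

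Of the 11 DNA demethylation and repair genes, which include *Tet1* and *Tet2*, 0 were called in any comparison in the edgeR model of all 8 libraries. All genes gave 8.54% for PCa against WT and 5.72% for PCa against PIN. Over the settings tried, 0 to 3 were called higher and 0 to 1 lower over WT, and 0 to 2 and 0 to 1 over PIN, among them *Tet2* and *Tet1* with DESeq2. The largest change in PCa over WT was that of *Gadd45b*, 2.62 on the log2 scale (edgeR BH-adjusted p = 0.148), which rested on 33.4 CPM in PCa 1 against 2.13 CPM in PCa 2. *Tet3*, the remaining TET gene and named outside the rule for the same reason as *Uhrf2*, had 80.8 to 126 CPM in WT and 92.1 and 152 CPM in PCa, with no call. Of the 7 readers of methylated CpG 0 were called in the same model, to be read against the same shares, and at most 1 in either direction over the settings tried. The largest differences were in *Zbtb38* (1.06 on the log2 scale in PCa over WT) and *Mbd3* (-0.79).

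**Figure D5:**
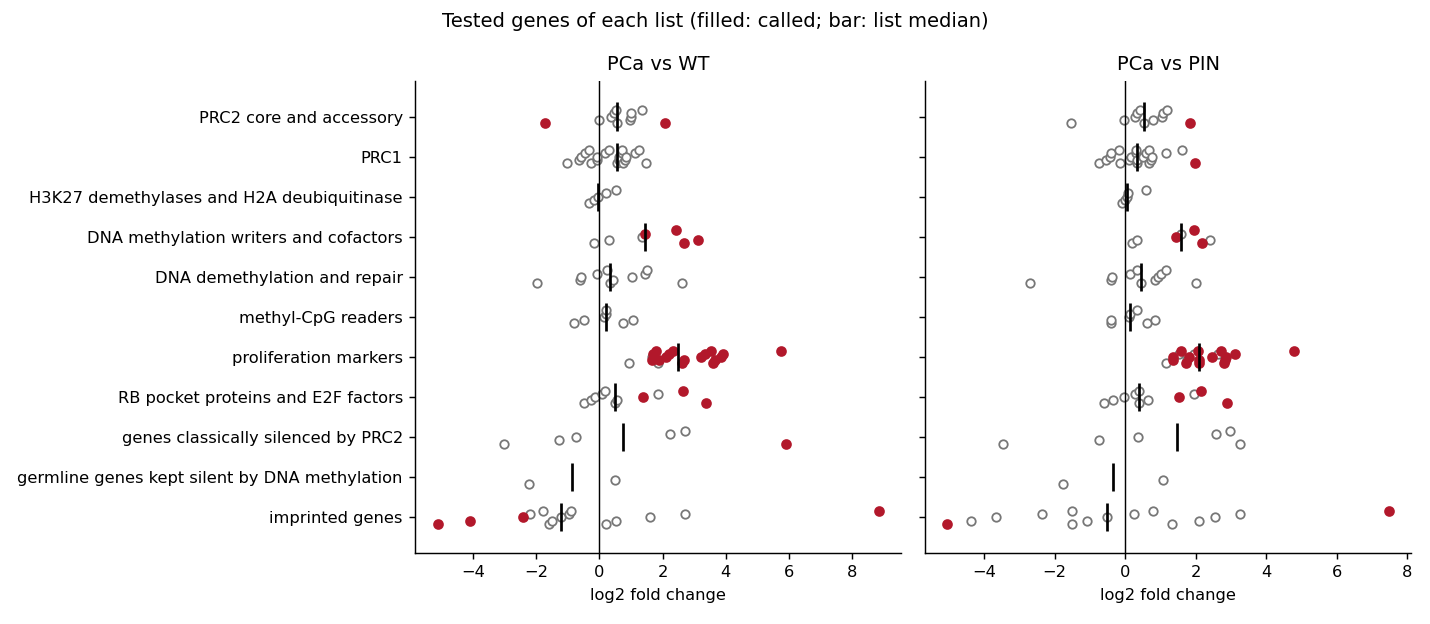
Log2 fold change (x axis) of each tested gene in the chromatin, proliferation, E2F and target lists (y axis) for PCa over WT and PCa over PIN; filled points were called and bars mark list medians. Proliferation markers and DNA methylation writers lie mostly right of 0, and *H19* and *Snrpn* are the outermost imprinted genes in PCa over WT.

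Genes that these enzymes are known to keep silent were read as a further group. Of 14 classical PRC2 targets in the table only 6 passed the filter, and 1 was called, higher, in PCa against WT, beside 4.35% of all genes called higher. Over the settings tried, 0 to 3 of them were called higher and 0 to 2 lower in this comparison. The gene called was *Cdkn2a*, which encodes the INK4A and ARF tumor suppressors, with 1, 1 and 0 counts in WT, 3, 17 and 2 in PIN, and 59 and 64 in PCa. It passed the filter on low values through the 2 PCa libraries alone, and was tested only because it was high there. No weight therefore rests on its call, and no other gene of this list was called. *Isl1*, a developmental transcription factor, had 10.1, 4.40 and 14.9 CPM in WT and 2.28 and 0.103 CPM in PCa, a log2 fold change of -3.03 that did not pass (edgeR BH-adjusted p = 0.121). Of 15 germline genes that DNA methylation is known to keep silent, only *Asz1* and *Brdt* passed the filter. In the edgeR model of all 8 libraries 0 were called, with log2 fold changes in PCa over WT of 0.48 and -2.22. Over the settings tried, 0 to 1 were called lower in PCa against WT. With so few tested genes the count says little beside the 8.54% of all genes called.

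Imprinted genes, whose 2 parental copies differ in DNA methylation, were read as well. Of 15 tested genes, 1 was called higher and 3 lower in PCa against WT, where 4.35% and 4.18% of all genes were. In PCa against PIN 1 was called higher and 1 lower, where 2.55% and 3.17% of all genes were. The gene called higher was *H19* in both comparisons, and it was tested only because it was high in PCa. The median log2 fold change over WT was -1.21, and lay between -1.567 and -0.5767 over the settings tried. Over PIN it was -0.53, with values from -1.595 to 0.2416. *H19*, a maternally expressed noncoding RNA, had 0.396, 0.181 and 0.110 CPM in WT, 0.432, 0.413 and 0.904 CPM in PIN, and 178 and 31.5 CPM in PCa. Its log2 fold change was 8.85 over WT (standard error 0.94) and 7.48 over PIN (standard error 0.87). Like *Cdkn2a*, it passed the filter only through the PCa libraries, so no weight rests on its calls. *Igf2*, the paternally expressed neighbour that shares its control region, had 7.81, 1.95 and 3.18 CPM in WT and 19.7 and 6.38 CPM in PCa, a log2 fold change of 1.60 that was not called (edgeR BH-adjusted p = 0.178). It was chosen for mention after its values had been seen. *Snrpn*, a paternally expressed gene whose transcript also encodes SNURF, had 22.6, 23.0 and 19.9 CPM in WT, 19.5, 19.8 and 22.8 CPM in PIN, and 0.901 and 0.343 CPM in PCa. It was nearly constant over the 6 WT and PIN libraries and fell by 5.12 on the log2 scale in PCa against WT (standard error 0.46, edgeR BH-adjusted p = 0.00461). *Grb10* and *Peg10*, with log2 fold changes of -2.43 and -4.10, also fell in PCa against WT (edgeR BH-adjusted p = 0.0138 and 0.0322). DNA methylation and histone marks were not measured in these samples.

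Over the 8 libraries, the tested genes most like *Ezh2* by Pearson correlation of log2(CPM + 1) were *Lrr1* (0.984), 2200002D01Rik (0.983), 2010109I03Rik (0.983), 5730559C18Rik (0.982) and Gm9573 (0.981). Those most like *Ezh1* were *Irf1* (0.991), BB218582 (0.989), *Ftsj2* (0.987), *Csf1* (0.985) and *Noxo1* (0.984). With 8 libraries in 3 groups and 14034 genes, such values describe these libraries only. Among the 10 genes, the closest pairs were *Uhrf1* with *Dnmt1* (0.959) and *Uhrf1* with *Ezh2* (0.932), then *Suz12* with *Eed* (0.904), and the most opposed pair was *Suz12* with *Tet1* (-0.798).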

How the data were processed

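RNA from 8 prostate tissue samples was sequenced after ribosomal RNA removal. Per the labels and the methods of the study, the authors trimmed reads with cutadapt 1.9.1, aligned them to mm9 with HISAT2 2.1.0 and counted them per gene with HTSeq 0.6.1, and deposited raw counts. The gene annotation and the strand setting are not given in the sources used here, so reads of overlapping antisense genes may be included. The titles number the replicates, and neither the titles nor the methods of the study state whether each is a separate mouse.

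Groups came from the sample titles. From the deposited counts, genes over 1 CPM in at least 2 libraries were fitted with edgeR 4.0.16 (R 4.3.3, TMM library sizes, quasi-likelihood test, 1 model of the 3 groups with 5 residual degrees of freedom), with Benjamini-Hochberg adjustment over all 14034 tested genes. CPM use TMM sizes, and TPM use the exon lengths of the table. DESeq2 1.42.0, limma 3.58.1, other normalizations, filters, group sets, a replicate block and single left-out libraries were alternatives. Exact permutation tests compared the *Ezh2* to *Ezh1* ratio. The residuals of samples with the same number had a mean correlation of 0.0827, so these samples were not treated as pairs.

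The genes and gene lists were chosen with earlier results of these data known. Named are all 10 genes, up to 5 called genes of each pathway list by size of change, the 2 largest changes of pathway lists with fewer than 2 calls, and the 5 genes most correlated with *Ezh2* and with *Ezh1*. Cell type markers fall outside this rule.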

Additional observations from a re-analysis of the deposited data

How the results depend on the processing

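All results rest on 3, 3 and 2 libraries, and the count of called genes moved strongly with the test and with the libraries in the model. The cause was not tested. With DESeq2 the genes called were 39 in PIN against WT, 2487 between PCa and WT, and 1984 between PCa and PIN, where edgeR called 0, 1198 and 803. The newer quasi-likelihood method called 1 gene in PIN against WT. With only the 2 groups compared in the model, 130 and 388 genes were called in the 2 comparisons with PCa, and 0 and 2 of the 10 chromatin genes. With the replicate block, 413 and 151 genes were called, and 2 (*Ezh2* and *Uhrf1*) and 1 (*Uhrf1*) of the 10, and in PCa against PIN the split of calls moved from 358 higher and 445 lower to 28 and 123. Samples with the same number shared little (residual correlations of -0.0389 to 0.265 over 7 pairs). Leaving out 1 library gave 347 to 2477 genes for PCa against WT, with 2 to 5 of the 10, and 78 to 2251 genes for PCa against PIN, with 0 to 5 of the 10. Where 1 PCa library was left, it was assumed to vary like the other groups. *Uhrf1* and *Dnmt1* were called in PCa against WT in all 8 fits without a library and *Ezh2* in 7, the exception being the fit without WT 3. In PCa against PIN, *Dnmt1* was called in 5, *Ezh2* in 4 and *Uhrf1* in 3 of these 8 fits. Over all settings, the E2F list had 0 to 3 and 0 to 4 genes called higher in the comparisons of PCa with WT and with PIN, and the imprinted list had 1 to 5 and 1 to 4 called lower and 0 to 2 called higher in each.

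Among the 10 genes, no called difference changed direction. Of the differences that were not called, several did. With upper-quartile normalization the log2 fold change of *Dnmt3b* in PIN over WT was 0.041 and that of *Ezh1* in PCa over WT 0.032, and DESeq2 gave 0.0070 for the latter. With single libraries left out, the log2 fold changes in PIN over WT were -0.0096 to 0.071 for *Ezh1*, -0.019 to 0.45 for *Ezh2*, -0.088 to 0.18 for *Dnmt1* and -0.16 to 0.063 for *Dnmt3b*. In PCa over WT they were -0.34 to 0.28 for *Ezh1*, -0.52 to 0.12 for *Dnmt3a* and -0.22 to 0.72 for *Dnmt3b*, and in PCa over PIN -0.37 to 0.26 for *Ezh1*, -0.15 to 0.49 for *Dnmt3a* and -0.20 to 0.75 for *Dnmt3b*. The log2 *Ezh2* to *Ezh1* ratio differed between PIN and WT by -0.049 to 0.44 in such fits.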

Other observations

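Some genes of the Polycomb target and germline lists were present in 1 tumor and nearly absent from the other. They did not pass the filter on low counts and have no test, and they were chosen for mention after their values had been seen. *Pax6*, a developmental transcription factor, had 1458 counts in PCa 1, 1 in PCa 2, 1 to 2 in WT and 4 to 18 in PIN. *Tex19.1*, a germline gene, had 90 counts in PCa 1, 1 in PCa 2, 4 in WT 1 and 0 in the other WT and PIN libraries. *Tdrd1*, which encodes a protein of the germline piRNA pathway, had 182 counts in PCa 2 and 0 in PCa 1, and no WT or PIN library held more than 2.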
